A study of Mus musculus with 12 samples.

Results

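The transcripts described here are those of 35 genes used to mark the cells of brain blood vessels, of which 26 mark endothelial cells and 9 mark mural cells, the pericytes and smooth muscle cells wrapped around them. They were listed by name, and a gene was measured where the array annotation gave a row to that symbol alone. This held for 33 of the 35 genes (24 endothelial and 9 mural), out of 30137 genes with such a row in the series. The row of Egfl7, an endothelial matrix protein, is shared with the microRNA genes it hosts and was not used, and Ly6a had no row of its own. Total RNA of brain cortex was measured on Clariom D arrays, 1 colour and 1 RNA sample per array. Tg mice (rTg4510) carried Tg(Camk2a-tTA)1Mmay and Tg(tetO-MAPT*P301L)4510Kha, so that human 0N4R tau with the P301L mutation was made under tTA driven by the Camk2a promoter, which is active in forebrain excitatory neurons and not in vessels. Non mice were described as nontransgenic littermates on the FVB/NJ strain. Feed was either doxycycline (Dox, 200 ppm for 35 days from 3.5 months of age), which lowers expression of the tau transgene in Tg mice, or normal feed (Veh). By the labels, each Tg group differed from its Non group in both transgenes, and Non + Dox mice received the drug with no tau transgene to suppress. The arrays compared were 3 of Tg + Dox (1 male, 2 female), 3 of Tg + Veh (2 male, 1 female), 2 of Non + Dox (both male) and 3 of Non + Veh (1 male, 2 female). A further array, Tg + Veh 4, was left out. The study removed 1 Tg + Veh sample after quality control, without a replicate number in the text of the paper.

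Endothelial cells line every brain vessel and are sealed to each other by tight and adherens junctions, which makes the blood-brain barrier. Because little passes between the cells, nutrients such as glucose and thyroid hormone cross through dedicated transporters, and efflux pumps return many drugs to the blood. Pericytes share the capillary basement membrane with the endothelium and depend on signalling through the PDGF receptor beta, whereas smooth muscle cells surround arteries and arterioles and contract. Vessels are a small part of cortical RNA. In bulk tissue of this kind, fewer cells of a type and less RNA per cell cannot be told apart.

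The promoters of 4 genes are shown because 3 of them (Tek, Rgs5 and Abcc9) were the members with the smallest p under doxycycline feed in Non cortex, and the fourth (Slc2a1) had the smallest p of the barrier transporters in Tg cortex. Each sequence holds the 250 bases before the RefSeq start (GRCm38.p6), 5′ to 3′ on the strand of the gene, and capitals mark matches on either strand to the ETS core AGGAAG, the GATA motif AGATAA, the GC box GGGCGG or the CCAAT box CCAAT. The windows are chr4:94739039-94739288 on the plus strand for Tek, chr1:169655251-169655500 on the plus strand for Rgs5, chr6:142702275-142702524 on the minus strand for Abcc9, and chr4:119108495-119108744 on the plus strand for Slc2a1.
Tek: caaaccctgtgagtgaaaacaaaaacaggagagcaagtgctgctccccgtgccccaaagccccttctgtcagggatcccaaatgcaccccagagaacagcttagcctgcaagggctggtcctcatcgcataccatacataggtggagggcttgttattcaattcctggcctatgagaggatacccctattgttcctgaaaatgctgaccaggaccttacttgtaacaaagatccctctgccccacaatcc
Rgs5: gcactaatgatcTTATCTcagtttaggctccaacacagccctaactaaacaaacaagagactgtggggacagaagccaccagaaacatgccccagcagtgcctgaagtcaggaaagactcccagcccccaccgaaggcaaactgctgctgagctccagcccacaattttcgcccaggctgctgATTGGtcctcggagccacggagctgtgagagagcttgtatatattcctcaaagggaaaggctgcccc
Abcc9: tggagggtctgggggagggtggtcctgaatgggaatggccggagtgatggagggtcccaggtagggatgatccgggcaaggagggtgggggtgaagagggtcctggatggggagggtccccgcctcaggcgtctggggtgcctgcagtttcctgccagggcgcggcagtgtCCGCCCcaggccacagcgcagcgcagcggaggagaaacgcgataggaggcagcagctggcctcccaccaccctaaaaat
Slc2a1: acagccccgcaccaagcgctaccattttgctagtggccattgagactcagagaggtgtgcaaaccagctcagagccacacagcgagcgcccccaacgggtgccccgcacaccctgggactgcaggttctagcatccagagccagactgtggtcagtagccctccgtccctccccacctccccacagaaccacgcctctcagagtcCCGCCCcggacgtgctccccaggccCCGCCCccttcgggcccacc
Tek held none of these letters, Rgs5 held the GATA motif 238 bases and the CCAAT box 67 bases before the start, Abcc9 held a GC box at 79 bases, and Slc2a1 held GC boxes at 45 and 20 bases. None of the 3 genes of smallest p under doxycycline in Non cortex shared a motif with another of them. Over 32851 mouse promoters of this length, the ETS core occurred in 29.5%, the GATA motif in 9.99%, the GC box in 32.7% and the CCAAT box in 33.8%. Of the 21 members whose promoters were counted, 11 held the ETS core, 2 the GATA motif, 8 the GC box and 6 the CCAAT box. These are counts of members and the shares above are of promoters, so they are unlike measures and were not compared. A match is a run of letters and not a shown binding site.

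Several properties of the arrays bear on the comparisons. Fgf14, disrupted by the tau transgene insertion, followed the labels, with log2 values of 10.85 to 11.34 for Tg and 12.01 to 12.29 for Non. Esyt2, at the insertion site of the tTA transgene, had values of 9.45 to 9.74 for Tg and of 10.86, 10.90 and 11.23 for 3 Non arrays, but was at 9.61 on Non + Dox 2 and 9.60 on Non + Veh 3. These 2 Non arrays therefore had the Tg level of that gene. Whether they carried the tTA transgene was not tested, so the genotype comparisons rest on the labels. Results were also computed without these 2 arrays. Snap25, a synaptic vesicle fusion protein that defines neurons, was at 18.13 to 18.70 on all 12 arrays. The markers of other cells moved with genotype: 9 of 12 tested microglia and macrophage markers (median log2 change 1.44), 7 of 13 astrocyte markers (median 0.36) and 5 of 13 oligodendrocyte markers (median 0.42) were higher in Tg + Veh than in Non + Veh at an adjusted p under 0.05. None of the 3 red cell markers with a row, of 11 listed, was above the signal filter. How many mice contributed to each RNA sample is not given in the sources used here beyond the description of the arrays as biological replicates, and the number of arrays limits the precision.

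Of the 33 genes with a row, 23 (18 endothelial and 5 mural) had a log2 signal above the study's filter on at least 1 of the 11 arrays and were tested, as were 12543 genes in all. The junction proteins tested were Cldn5, the main claudin of the barrier, Pecam1 and the VE-cadherin gene Cdh5. The receptors were the VEGF receptors Flt1 and Kdr, the angiopoietin receptor Tek, the TGF-beta co-receptor Eng, and Ptprb, the phosphatase that acts on Tek. The transporters were Slc2a1 (glucose), Slco1c1 (thyroxine), Slco1a4 (organic anions), Abcb1a (P-glycoprotein, an efflux pump), Mfsd2a (lipids with docosahexaenoic acid) and Bsg, the chaperone of monocarboxylate transporters. The other endothelial genes were Ly6c1, Itm2a, Nostrin and Anxa3, and the mural genes were Abcc9, Pdgfrb, Rgs5, Vtn and Acta2. The 10 genes below the filter on all 11 arrays were Tie1, Esam, Emcn, Vwf, Sox17, Sox18, Notch3, Tagln, Myh11 and Higd1b, so 2 of the 3 smooth muscle genes and both Sox factors were not tested. Kdr passed on 9 arrays, Tek on 10, Acta2 on 7 and Anxa3 on 3, and the other 19 on all 11. The 3 arrays on which Anxa3 passed were those of Tg + Veh, so it entered the test only through the group in which it was high.

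**Figure D1:**
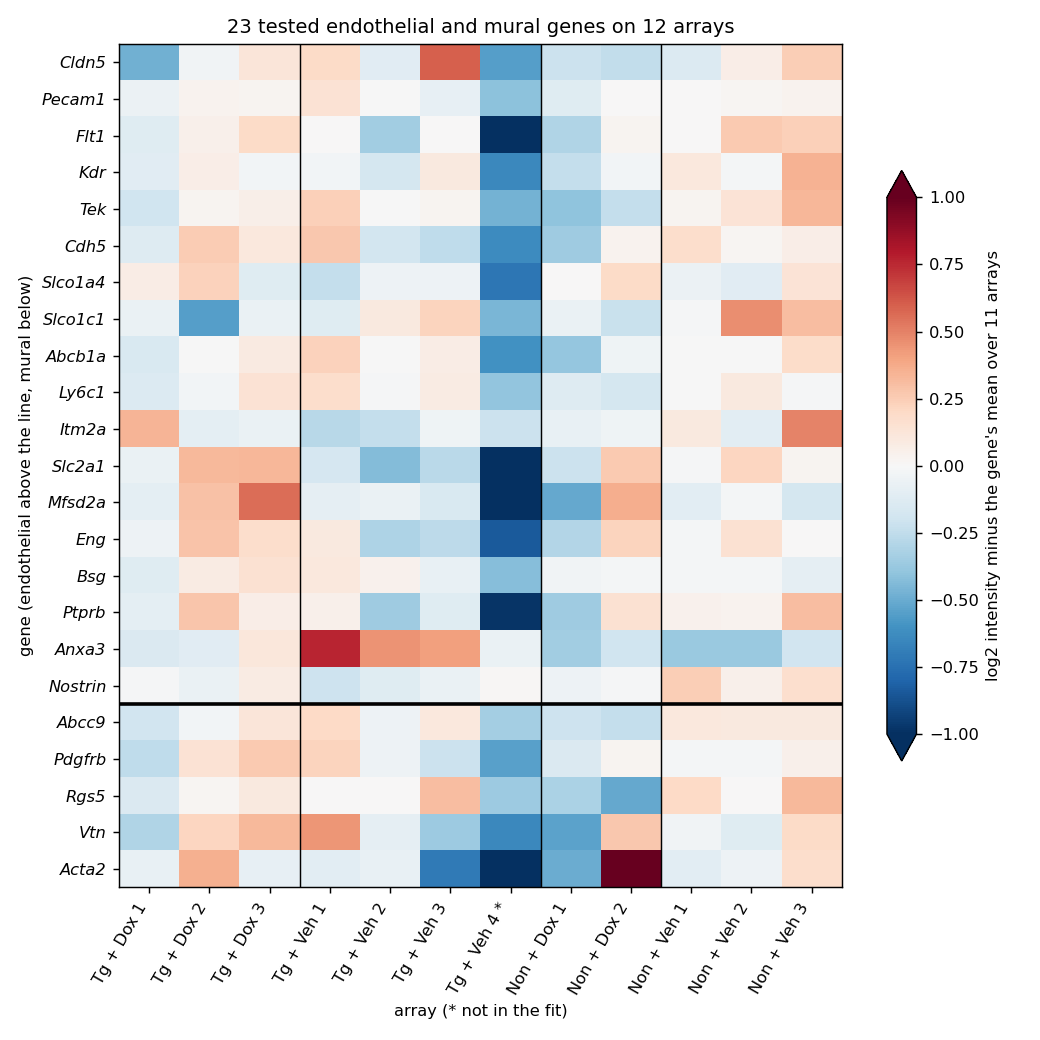
Log2 intensity of the 23 tested genes (rows, endothelial above the line and mural below) on 12 arrays (columns), each gene set to its mean over 11 arrays, with the colour scale ending at 1 log2 unit in either direction. Tg + Veh 4, marked with an asterisk and not in the fit, was low across most rows, and Anxa3 stood high on the Tg + Veh arrays 1 to 3.

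The first comparison asked how vessel transcripts of tau-expressing cortex differed from those of nontransgenic cortex on normal feed. Anxa3 was higher in Tg + Veh cortex and was the only member to pass the test, while the other 17 endothelial and 5 mural genes did not. Anxa3 encodes a calcium-dependent membrane-binding annexin. Its log2 intensity was 7.33, 7.02 and 6.97 on the Tg + Veh arrays, against 6.19, 6.20 and 6.37 on the Non + Veh arrays. All 3 Tg + Veh arrays were above all 3 Non + Veh arrays, a log2 change of 0.85 (SE 0.109, 1.81-fold, limma adjusted p = 0.00806). This 1 call among 23 members stands beside 1.98% of all genes called in this comparison, and 1.84% called as higher. The call was kept in each of 11 fits that left out 1 array (log2 change 0.74 to 0.92, adjusted p 0.00882 to 0.0451). Those fits kept the signal filter, which Anxa3 passed only on Tg + Veh arrays. With no signal filter the call was also kept (adjusted p = 0.0177), and that fit was not repeated with arrays left out. With Tg + Veh 4 included, at 6.50, the change was 0.70 and was not called (adjusted p = 0.147), and 1 gene of the whole series was. Microglia and astrocyte markers moved with Anxa3: their summed signals were 13.44 to 14.11 and 17.90 to 18.31 log2 units in Tg + Veh, against 11.54 to 11.79 and 17.27 to 17.39 in Non + Veh, and their part in the Anxa3 result was not tested.

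Nostrin, which regulates the trafficking of endothelial nitric oxide synthase, came next by p. Its log2 intensity was 6.87, 6.96 and 7.01 in Tg + Veh, against 7.32, 7.13 and 7.25 in Non + Veh. The groups did not overlap, and the log2 change of -0.29 (SE 0.0628, 1.22-fold lower) missed the threshold (limma adjusted p = 0.0571). It was just inside the threshold when each array was centred on its median (adjusted p = 0.0498). Slc2a1, the glucose transporter of the barrier, was at 11.47, 11.20 and 11.37 in Tg + Veh, against 11.63, 11.85 and 11.66 in Non + Veh, again without overlap (log2 change -0.37, SE 0.149, adjusted p = 0.323). Itm2a, a membrane protein enriched in brain endothelium, was at 10.14, 10.18 and 10.37 in Tg + Veh and at 10.51, 10.31 and 10.91 in Non + Veh, with overlapping groups (log2 change -0.35, adjusted p = 0.386, and -0.18 without Non + Veh 3). Anxa3, Nostrin and Slc2a1 were thus the 3 of 23 members without overlap in this comparison, where 18.8% of all genes showed none (13.5% higher and 5.29% lower in Tg + Veh).

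No mural gene passed the test. Acta2, smooth muscle actin, was at 6.75, 6.78 and 6.15 in Tg + Veh and at 6.75, 6.80 and 7.02 in Non + Veh (log2 change -0.30, SE 0.367, adjusted p = 0.756). Rgs5, a regulator of G protein signalling that marks pericytes, was at 10.88, 10.88 and 11.19 in Tg + Veh and at 11.07, 10.88 and 11.20 in Non + Veh (log2 change -0.07, SE 0.113, adjusted p = 0.83). The sign of this small Rgs5 value turned with sex as a term in the fit and when Non + Veh 3 was left out. All 5 mural genes and 12 of 18 endothelial genes had a negative change, with medians of -0.02 and -0.12, beside a median of 0.02 over all genes, of which 59.4% were positive. The endothelial median was -0.27 with Tg + Veh 4 included and -0.06 without Non + Veh 3. The mural median was -0.13 without Tg + Veh 1 and turned to 0.0045 without Non + Veh 3.

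**Figure D2:**
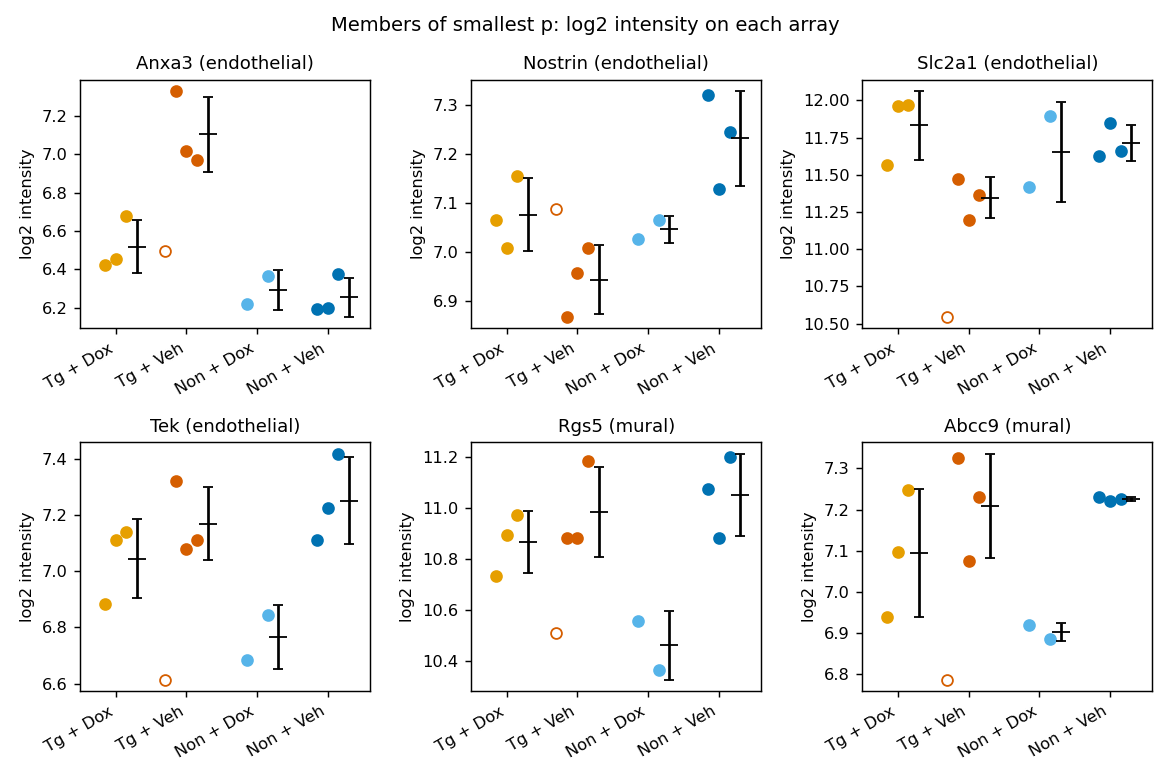
Log2 intensity (vertical axis) of 6 genes on each array, by group along the horizontal axis, with the mean and SD of each group in black and Tg + Veh 4, which was not in the fit, as an open circle. Anxa3 was at 6.97 to 7.33 in Tg + Veh and at 6.19 to 6.37 in Non + Veh, and Tek, Rgs5 and Abcc9 were lowest in Non + Dox among the arrays in the fit.

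The second comparison asked what doxycycline feed did in Tg cortex, where it suppresses tau. No member passed the test, beside 0.694% of all genes called, and 2 of 23 members had an unadjusted p under 0.05 by limma, against 16% of all genes. Anxa3 was at 6.42, 6.46 and 6.68 in Tg + Dox, against 7.33, 7.02 and 6.97 in Tg + Veh, without overlap. The log2 change was -0.59 (SE 0.109) with an adjusted p of 0.0533, and it was called after quantile normalization (adjusted p = 0.0472) and without Tg + Dox 3 (-0.67, adjusted p = 0.0439). In the other alternatives it was not called, with adjusted p of 0.110 with no signal filter, 0.0849 with sex as a term, 0.125 with the replicate number as a block, 0.225 with Tg + Veh 4 included (change -0.44) and up to 0.136 with 1 array left out. The summed microglia signal was 12.05 to 12.88 in Tg + Dox, between that of Tg + Veh and that of Non + Veh. All 12 tested microglia markers (median log2 change -0.88, none called), 12 of 13 astrocyte markers (median -0.25, with Mlc1, Slc14a1 and S100b called) and 13 of 13 oligodendrocyte markers (median -0.49, with Cnp, Mag and Mog called) were at a lower mean in Tg + Dox than in Tg + Veh, and their part in the Anxa3 values was not tested.

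Slc2a1 was at 11.57, 11.96 and 11.97 in Tg + Dox, against 11.47, 11.20 and 11.37 in Tg + Veh. The groups did not overlap, and the log2 change of 0.49 (SE 0.149, 1.40-fold) did not pass (adjusted p = 0.169). Anxa3 and Slc2a1 were the only members without overlap, 2 of 23, beside 17.1% of all genes (5.32% higher and 11.8% lower in Tg + Dox). Eng was at 7.38, 7.71 and 7.61 in Tg + Dox and at 7.53, 7.12 and 7.17 in Tg + Veh (log2 change 0.30, SE 0.153, adjusted p = 0.381). Nostrin was at 7.06, 7.01 and 7.16 in Tg + Dox and at 6.87, 6.96 and 7.01 in Tg + Veh (log2 change 0.13, adjusted p = 0.339). The Eng and Nostrin values overlapped between the feeds.

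Among mural genes, Abcc9, a subunit of the ATP-sensitive potassium channel of pericytes, was at 6.94, 7.10 and 7.25 in Tg + Dox and at 7.32, 7.07 and 7.23 in Tg + Veh (log2 change -0.12, SE 0.0831, adjusted p = 0.534). Rgs5 was at 10.73, 10.89 and 10.97 in Tg + Dox and at 10.88, 10.88 and 11.19 in Tg + Veh (log2 change -0.12, adjusted p = 0.653), and its change was near 0 with all 12 arrays. Both ranges overlapped. The medians were 0.07 for endothelial and 0.06 for mural genes, beside -0.02 for all genes. With 1 array left out, the endothelial median lay between 0.02 (without Tg + Dox 2) and 0.10 (without Tg + Dox 1), and the mural median turned to -0.04 without Tg + Dox 3 and was 0.22 without Tg + Dox 1.

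The third comparison took doxycycline feed in Non cortex, where no tau transgene is present. Here the smallest p-values belonged to a pericyte gene, an endothelial receptor and a second pericyte gene, all lower in Non + Dox, and none passed the test. No gene of the series passed (0% called), 10.6% of all genes had an unadjusted p under 0.05 by limma, and 6 of 23 members did. Rgs5 was at 10.56 and 10.37 in Non + Dox, against 11.07, 10.88 and 11.20 in Non + Veh, a log2 change of -0.59 (SE 0.127, adjusted p = 0.232). Tek was at 6.69 and 6.85 in Non + Dox, against 7.11, 7.22 and 7.42 in Non + Veh, a log2 change of -0.49 (SE 0.117, 1.40-fold lower, adjusted p = 0.245). Abcc9 was at 6.92 and 6.89 in Non + Dox, against 7.23, 7.22 and 7.23 in Non + Veh, a log2 change of -0.32 (SE 0.0929, 1.25-fold lower, adjusted p = 0.29). In all 3 genes both Non + Dox arrays were below every Non + Veh array. Without Non + Dox 2 and Non + Veh 3 together, the changes were -0.42 for Rgs5, -0.48 for Tek and -0.31 for Abcc9. These values rest on Non + Dox 1 as the only Non + Dox array.

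The 3 endothelial genes next by p had smaller differences of the same sign. Changes larger than theirs, with a larger p, were those of Slco1c1 (-0.40), Flt1 (-0.30) and Cldn5 (-0.29). Nostrin was at 7.03 and 7.06 in Non + Dox and at 7.32, 7.13 and 7.25 in Non + Veh (log2 change -0.19, SE 0.0703, adjusted p = 0.408). Kdr was at 6.69 and 6.90 in Non + Dox and at 7.03, 6.91 and 7.28 in Non + Veh (log2 change -0.28, adjusted p = 0.466). Abcb1a was at 8.60 and 8.95 in Non + Dox and at 8.98, 8.98 and 9.17 in Non + Veh (log2 change -0.27, adjusted p = 0.468). For Kdr and Abcb1a the second Non + Dox array lay next to the Non + Veh range, and the change of Abcb1a was -0.10 without Non + Dox 1 and -0.45 without Non + Dox 2. In all, 7 endothelial genes (Nostrin, Kdr, Abcb1a, Tek, Cldn5, Slco1c1 and Ly6c1) and 2 mural genes (Rgs5 and Abcc9) were lower in Non + Dox without overlap, 9 of 23, and no member was higher without overlap. Over all genes, 10.1% were lower and 14.6% higher without overlap.

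The medians were -0.20 for the 18 endothelial genes and -0.14 for the 5 mural genes, beside 0.01 for all genes, and 14 and 4 of them were negative, against 56.2% of all genes positive. Both medians rested on few arrays. Without Non + Dox 1 they were -0.08 and 0.03, and without Non + Dox 2 they were -0.31 and -0.49. Acta2 was at 6.36 and 8.02 in Non + Dox and at 6.75 to 7.02 in Non + Veh, with Non + Dox 2 the highest of the 12 arrays (log2 change 0.33, SE 0.410, adjusted p = 0.852). Tagln and Myh11, the smooth muscle genes below the filter, were also highest on Non + Dox 2, at 5.79 and 5.82. On Non + Dox 1 these 2 genes were at 5.31 and 5.43. The 4 other tested members with a positive value were Slco1a4 (0.11), Anxa3 (0.04), Mfsd2a (0.03) and Bsg (0.01). Both Non + Dox arrays were from males, and with sex as a term in the fit the changes were -0.42 for Rgs5, -0.44 for Tek and -0.26 for Abcc9. Markers of fibroblasts and meninges had a median log2 change of 0.42 in the same comparison, with none of 9 called. Oligodendrocyte markers had a median of -0.15, with 11 of 13 at a lower mean in Non + Dox, 5 of them without overlap, and none called. The part of either in the vessel values was not tested.

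**Figure D3:**
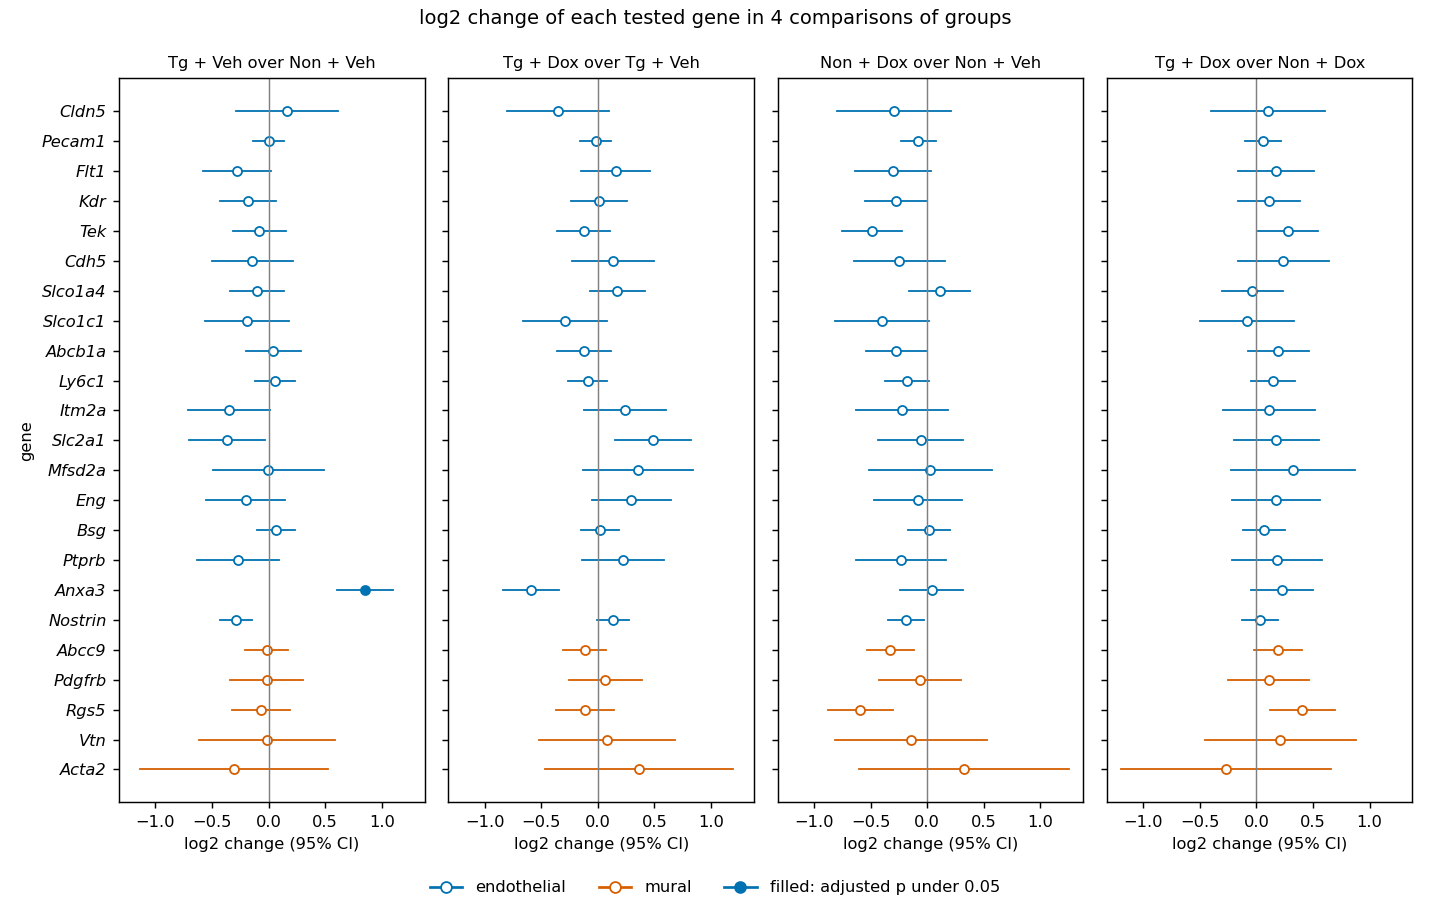
Log2 change (horizontal axis, point) with its 95% confidence interval (line) of each of the 23 tested genes in 4 comparisons, endothelial genes in blue and mural genes in orange, filled where the limma adjusted p was under 0.05. Anxa3 in Tg + Veh over Non + Veh, at 0.85, is the only filled point.

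On doxycycline feed, Tg and Non cortex were compared with the same Non + Dox arrays as above, so low Non + Dox values enter both comparisons. No member and no other gene passed (0% called), and 2 of 23 members had an unadjusted p under 0.05 by limma, against 6% of all genes. Rgs5 was at 10.73, 10.89 and 10.97 in Tg + Dox, against 10.56 and 10.37 in Non + Dox (log2 change 0.40, SE 0.127, adjusted p = 0.687). Tek was at 6.88, 7.11 and 7.14 in Tg + Dox, against 6.69 and 6.85 in Non + Dox (log2 change 0.28, SE 0.117, adjusted p = 0.82). Abcc9 and Anxa3 were also higher in Tg + Dox without overlap (log2 changes 0.19 and 0.23, adjusted p = 0.851 and 0.859). These 4 of 23 members compare with 6.28% of all genes higher without overlap, and no member was lower without overlap, beside 8.92% of all genes.

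Ly6c1, an endothelial surface protein, was at 10.27, 10.38 and 10.55 in Tg + Dox and at 10.28 and 10.23 in Non + Dox (log2 change 0.14, adjusted p = 0.871). Abcb1a was at 8.84, 8.98 and 9.08 in Tg + Dox and at 8.60 and 8.95 in Non + Dox (log2 change 0.19, adjusted p = 0.881). The Abcb1a change was 0.02 without Non + Dox 1 and 0.37 without Non + Dox 2. Both genes overlapped between the groups. In this comparison 16 of 18 endothelial and 4 of 5 mural genes had a positive change, with medians of 0.16 and 0.19, beside 0.00 over all genes, and without Non + Dox 1 these medians were 0.01 and 0.02.

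Over both feeds, Tg cortex exceeded Non cortex in Anxa3 alone (log2 change 0.54, SE 0.0816, adjusted p = 0.0258), where 0.805% of all genes were called, 0.71% as higher. Anxa3 had entered the test only through Tg + Veh, where it was high, and the call was lost with no signal filter (adjusted p = 0.0546), with sex as a term (0.0591), with the replicate number as a block (0.108) and with Tg + Veh 4 included (log2 change 0.46, adjusted p = 0.293). It was also lost in 7 of the 11 fits that left out 1 array (adjusted p 0.0281 to 0.105 over the 11) and without Non + Dox 2 and Non + Veh 3 together (0.61, adjusted p = 0.084). Over both genotypes, no member passed for feed, beside 0.502% of all genes, and 7 of 23 had an unadjusted p under 0.05 by limma, against 17.6% of all genes. Rgs5 (-0.35, adjusted p = 0.0924) and Tek (-0.31, adjusted p = 0.102) were the closest. The methods' two-way test at p of at most 0.01 named Anxa3 for genotype and for the interaction and Tek and Rgs5 for feed, beside 3.78%, 1.47% and 5.15% of all genes, and named no member after Benjamini-Hochberg adjustment.

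Whether feed acted differently by genotype was tested as the interaction, and no gene passed (0% called). The interaction had an unadjusted p under 0.05 by limma for 6 of 23 members and 8.2% of all genes. Anxa3 had the smallest p and a negative value (log2 difference -0.63, SE 0.163, adjusted p = 0.441), and Nostrin came next with a positive value (0.32, SE 0.0943, adjusted p = 0.48). The interaction was positive for 16 of 18 endothelial and 5 of 5 mural genes, with medians of 0.30 and 0.21, beside -0.03 over all genes, of which 39.4% were positive. Lower on doxycycline in Non and higher on it in Tg were 8 endothelial and 2 mural genes, and 6 endothelial and 2 mural genes were lower in both genotypes. Without Non + Dox 1 the medians of the interaction were 0.15 and 0.04. No member differed by over 2-fold in any of the 4 comparisons of groups.

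Endothelial and mural genes were mostly low or high on the same arrays, and whether genes at large followed the same arrays was not tested. With each gene set to its mean over 11 arrays, the average deviation of the endothelial genes was -0.09, 0.06 and 0.11 in Tg + Dox, 0.06, -0.10 and 0.01 in Tg + Veh, -0.23 and 0.00 in Non + Dox, and 0.00, 0.05 and 0.13 in Non + Veh. The mural genes averaged -0.19, 0.14 and 0.14 in Tg + Dox, 0.15, -0.05 and -0.17 in Tg + Veh, -0.34 and 0.14 in Non + Dox, and 0.03, -0.02 and 0.17 in Non + Veh. Arrays low in one class were mostly low in the other, and no group stood apart in either. On Non + Dox 1, 17 of 18 endothelial genes and 5 of 5 mural genes were below their own mean, while Non + Dox 2 was near 0 in the endothelial and above it in the mural class. The difference between the classes, endothelial minus mural, lay between -0.14 on Non + Dox 2 and 0.18 on Tg + Veh 3. Both values changed when Acta2 was left out. Leaving out Acta2 was an alternative chosen after seeing the data, and the 4 other mural genes are all pericyte genes. Those 4 genes averaged -0.11 on Non + Dox 2 and -0.04 on Tg + Veh 3. The difference between the classes was then 0.11 and 0.05 there, and it lay between -0.15 on Tg + Veh 1 and 0.13 on Tg + Dox 1.

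**Figure D4:**
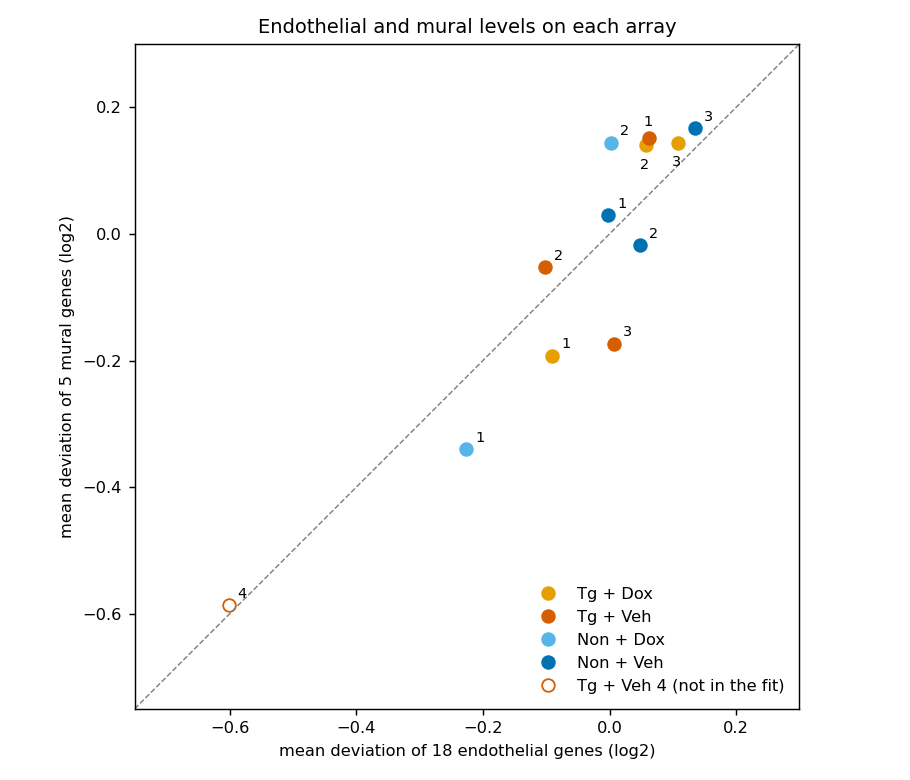
Mean deviation of the 5 mural genes (vertical axis, log2) against that of the 18 endothelial genes (horizontal axis, log2) on each array, coloured by group and labelled with the replicate number, with the line of equality dashed. Tg + Veh 4 (open circle) lies at -0.60 and -0.59, and Non + Dox 1 is the lowest of the arrays in the fit.

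Deviations from the group means were correlated over 11 arrays that share their scaling. The median correlation was 0.39 between endothelial genes, 0.44 between mural genes and 0.46 between genes of different classes. Each group mean came from few arrays, which left 7 residual degrees of freedom. No such value was computed for other genes, so whether vessel genes were more alike than genes at large was not tested. The genes most like the mean of the other members were Abcb1a (r = 0.98), Ptprb (0.89), Tek (0.88) and the pericyte-enriched matrix protein gene Vtn (0.88). Slco1c1 (-0.38), Itm2a (-0.21), Nostrin (-0.03) and Rgs5 (0.04) were least like it. Slco1c1 is also expressed by astrocytes. On Tg + Veh 4, 18 of 23 members (78.3%) were below all 11 other arrays, beside 18% of all genes, and the 5 that were not were Slco1c1, Itm2a, Anxa3, Nostrin and Rgs5.

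The other genes of vessel pathways, 66 tested genes in 9 lists, gave 1 call, in Tg + Veh over Non + Veh, where 1.98% of all genes were called. Sparcl1, a secreted matrix protein that astrocytes also make in quantity, was higher in Tg + Veh, at 18.41, 18.38 and 18.36, against 18.08, 18.03 and 18.20 in Non + Veh (log2 change 0.28, SE 0.0562, adjusted p = 0.0431). Tg + Veh 4, not in the fit, was at 18.20, the level of Non + Veh 3. The alternative fits were read out for members only, so this call was not followed through them. Sparcl1 was 1 of 7 tested genes of the basement membrane list, and Sparc, of the same list, was at 0.90 (adjusted p = 0.112). Genes named from the other lists were chosen by smallest p, and none of them passed. In Tg + Veh over Non + Veh these were the leukocyte adhesion molecule Vcam1 (0.41, adjusted p = 0.06), the hypoxia factor Hif1a (0.20, adjusted p = 0.0729), the ETS factor Fli1 (0.29, adjusted p = 0.123) and the Wnt co-receptor Tspan12 (0.48, adjusted p = 0.104). In Non + Dox over Non + Veh they were the growth factor Tgfb2 (0.63, adjusted p = 0.232), the VEGF co-receptor Nrp2 (0.89, adjusted p = 0.237) and the monocarboxylate transporter Slc16a1 (-0.43, adjusted p = 0.255). In Tg + Dox over Tg + Veh they were the cyclic GMP phosphodiesterase Pde5a (-0.22, adjusted p = 0.121), the Notch ligand Jag2 (0.24, adjusted p = 0.222), the ephrin Efnb2 (0.25, adjusted p = 0.229), and the caveola genes Cavin3 (-0.39, adjusted p = 0.255) and Cav2 (-0.46, adjusted p = 0.265). The medians of these lists lay between -0.25 and 0.14 log2 units over the comparisons of 2 groups.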

How the data were processed

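Cortical RNA was measured on 12 Clariom D arrays, commercially processed by ThermoFisher. The deposited values are log2 intensities that the authors computed with the Robust Multi-Array algorithm (RMA, version not given in the sources used here), already normalized between arrays. They hold no read depth. Rows were named through the platform annotation, which gave 30473 of 65770 transcript clusters 1 symbol and 2176 several. A gene took its row of highest mean among those that gave only its symbol (30137 genes), and 12543 genes with a log2 signal above 6.76, the study's filter, on at least 1 of 11 arrays were tested. Tg + Veh 4 was left out. The paper removed 1 Tg + Veh sample after quality control, and its text does not give the replicate number. One coefficient per group was fitted with limma 3.58.1 in R 4.3.3 (lmFit, contrasts.fit, eBayes), and p-values of the moderated test were adjusted by Benjamini-Hochberg over all genes tested. Calls were made where the adjusted p was under 0.05. The fit was also run on simulated data, and no result given here rests on that run. Figures were drawn with matplotlib 3.10.9 and tables made with pandas 2.3.3 in Python 3.11.15. P-values set a difference against the spread between arrays, and levels are not compared between genes because probes differ in brightness.

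Members and lists were chosen with earlier results of these data known. Values on every array were given for members called in any of 7 contrasts and for the 4 endothelial and 2 mural members of smallest p in each comparison of 2 groups, and from the other lists of vessel genes the called genes and otherwise those of smallest p. Alternatives covered the arrays used, the signal filter, scaling, the row per gene, sex, the replicate number, the spread model, the methods' two-way test and leaving out each array. Same-numbered arrays deviated together with correlations of -0.26 to 0.41. With 2 or 3 arrays per group, these values can neither show nor exclude pairing. The replicate numbers were not taken to pair samples. Promoters and motif shares came from RefSeq (GRCm38.p6).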

Additional observations from a re-analysis of the deposited data

Results flagged for a closer look

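Among the 33 measured members, 4 had 1 array far from the others of the 4 Tg + Veh arrays by Dixon's test. Chance flags about 1 in 20 groups of normal, untied values. Values were tied for Tie1 (Tg + Veh 2 and 3, at 5.67) and for Sox17 (Tg + Veh 1 and 4, at 5.02), so that share does not carry over to them. Mfsd2a, the lipid transporter of the barrier, was at 8.20 on Tg + Veh 4, against 9.29 to 9.37 on the other 3 arrays. Tie1, an endothelial receptor below the signal filter on all 11 arrays in the fit, was at 5.59 on Tg + Veh 4, against 5.67 to 5.68. Sox17, an arterial transcription factor, was at 4.95 on Tg + Veh 2 and at 5.02 on the others. Higd1b, a pericyte gene, was at 5.56 on Tg + Veh 2, against 5.45 to 5.47 on the others. Sox17 and Higd1b were also below the filter. Tg + Veh 4 is the array left out of the fit, and its low values reach most members.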

How the results depend on the processing

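Of 525 alternative values of named members, 505 kept direction and side of the threshold, 13 lost a call, 3 gained 1 and 4 changed sign, and of 475 values of counts and medians 26 moved. The number of members called in Tg + Veh over Non + Veh was 1, but 0 with all 12 arrays and 2 with each array centred on its median. In Tg + Dox over Tg + Veh it was 0, but 1 after quantile normalization, and 0 to 1 with 1 array left out (1 without Tg + Dox 3). For Tg over Non over both feeds it was 1, but 0 with all 12 arrays, no signal filter, sex as a term, the replicate block, the methods' two-way test after adjustment, or Non + Veh 3 and Non + Dox 2 left out together, and 0 to 1 with 1 array left out. The 0 came without Non + Veh 1 or 2, Non + Dox 1 or 2, Tg + Veh 2, or Tg + Dox 2 or 3. The methods' two-way test at p of at most 0.01 named 2 members for feed and 1 for the interaction, where limma called 0.

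The endothelial median of Tg + Veh over Non + Veh was -0.27 with all 12 arrays, against -0.12 with 11. With 1 array left out, the endothelial medians ranged from -0.31 to -0.075 in Non + Dox over Non + Veh, 0.011 to 0.26 in Tg + Dox over Non + Dox and 0.15 to 0.37 for the interaction. The mural median of Non + Dox over Non + Veh ranged from -0.49 to 0.027 and was -0.42 without Non + Veh 3 and Non + Dox 2 together. The change of Rgs5 in Tg + Veh over Non + Veh was 0.015 with sex as a term, 0.0045 without Non + Veh 3 and Non + Dox 2 together and -0.17 to 0.0045 with 1 array left out, and in Tg + Dox over Tg + Veh it was 0.0012 with all 12 arrays. The causes were not tested.

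With the replicate block, Anxa3 kept its call in Tg + Veh over Non + Veh (0.85, adjusted p = 0.0341), lost it over both feeds (0.53, adjusted p = 0.108), and genes called in Tg + Veh over Non + Veh numbered 121, against 248. With 2 or 3 arrays per group, the SE of a member had a median of 0.133 for 3 arrays against 3, and 10 members were too dim to test.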
